A study of Drosophila melanogaster with 2 samples.

Results

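The genes SNF4Agamma, Ptp61F, nocte, velo, Hakai, Arf1, EMC4 and CG33170 have more summits of the tagged transcription factor Unc-4 in the gene or within 5 kb of it than nearly all other fly genes. They were chosen by the number of summits in the pooled peak list that fell in the gene plus 5 kb on either side, as the genes next after EcR (12 summits) and psq (11 summits), and they are 8 of 13968 protein-coding genes. Because these counts chose the genes, the counts are a description and were not tested. EMC4, CG33170 and Arf1 are neighbours on chromosome 3L and share 8 summits, so that the 8 genes form 6 loci. These loci hold 54 of the 4899 pooled summits on nuclear chromosomes.

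The data came from chromatin immunoprecipitation and sequencing (ChIP-seq) in Drosophila melanogaster. Whole embryos of 6 to 18 h formed 1 group of 2 biological replicates. All embryos were of the transgenic strain unc-4-GFP, which carries an insertion targeting unc-4 and makes an Unc-4 protein fused to eGFP. The fusion was pulled down with an antibody against GFP, although the antibody label names unc-4, and chromatin had been sonicated to 200 to 800 bp. The age comes from the source name, since the age label cannot be read as hours. No group without the tag, no input and no other genotype was analysed here, so the values are occupancy calls by the authors' pipeline and not differences between conditions. The lists hold no read counts, so the depth is unknown. Whole embryos mix all cell types, so a summit does not say in which cells the protein lay on the DNA, nor in what share of them.

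Unc-4 is a homeodomain transcription factor, known for its role in the identity of subsets of neurons. A ChIP-seq peak is an interval in which fragments pile up, and its summit is the base where the pile is highest. A gene can collect several summits because it has several start sites that are each occupied, because neighbouring genes start nearby, or because 1 stretch is wide enough for a peak caller to place more than 1 summit on it. The 8 genes encode proteins of unlike function. SNF4Agamma is the gamma subunit of AMP-activated protein kinase, the sensor of cellular energy. Ptp61F is a non-receptor tyrosine phosphatase that restrains JAK/STAT signalling. The nocte gene is needed to set the circadian clock by temperature cycles, and velo encodes a SUMO protease. Hakai is a RING-finger protein of the complex that writes N6-methyladenosine on messenger RNA. Arf1 is a small GTPase that recruits vesicle coats at the Golgi, and EMC4 is a subunit of the ER membrane complex, which inserts membrane proteins. No role is given here for CG33170.

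In the account that follows, peaks that overlap by at least 1 bp form a region, the summit with the highest signal in a region is its leading summit, and all others in it are side summits. Signal is the authors' value in the peak list, whose scale is not stated and which can be compared only within a list. Start sites on 1 strand that lie within 100 bp of each other form a start cluster, and a summit marks the nearest cluster if it lies within 1 kb of it. Peaks come from 4 lists that the authors cut by the irreproducible discovery rate (IDR), a measure of how well peaks repeat between samples: a pooled and a conservative list of both replicates together, and 1 list for each replicate. A replicate matches a pooled summit if its list has a summit within 100 bp. A minus sign before a distance means upstream of the start site. A summit between head-to-head genes is credited to the nearer start, even where the other lies almost as close.

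The sequences under some of the summits are given as examples. They were chosen by signal and by whether they hold the motif TATCGA, and do not stand for all summits of the loci. Each run below is the 101 bases around a summit, written along the strand of the nearest gene, from the RefSeq assembly Release 6 plus ISO1 MT, with every TATCGA, on either strand, in capitals. TATCGA is the core of the DNA replication-related element, a motif of many fly housekeeping promoters. Oga, Neb-cGP and PPP4R2r are neighbours of the members and carry the strongest leading summits with the motif. In the pooled list, Arf1 and EMC4 carry the members' own leading summits with it. The replicate 1 summit at the first SNF4Agamma start also held it, whereas the replicate 2 summits at Oga and PPP4R2r did not. Ptp61F and CG9166 carry the strongest summits without it, and the dikar side summit holds it while the leading summit of that region does not.

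Oga, chr3R:21219015-21219115, plus strand: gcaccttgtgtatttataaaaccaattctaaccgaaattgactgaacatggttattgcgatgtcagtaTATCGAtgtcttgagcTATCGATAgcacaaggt

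Neb-cGP, chrX:10460631-10460731, plus strand: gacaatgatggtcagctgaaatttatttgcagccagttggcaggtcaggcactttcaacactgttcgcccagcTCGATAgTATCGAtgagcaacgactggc

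PPP4R2r, chrX:10478707-10478807, plus strand: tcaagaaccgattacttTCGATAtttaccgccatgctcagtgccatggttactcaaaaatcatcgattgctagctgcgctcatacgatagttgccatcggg

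Arf1, chr3L:22871546-22871646, minus strand: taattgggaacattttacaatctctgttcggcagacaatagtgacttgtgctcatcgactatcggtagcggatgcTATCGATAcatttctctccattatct

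EMC4, chr3L:22868255-22868355, minus strand: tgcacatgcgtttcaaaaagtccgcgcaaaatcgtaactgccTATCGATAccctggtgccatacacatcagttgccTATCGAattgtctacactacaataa

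Ptp61F, chr3L:1350605-1350705, minus strand: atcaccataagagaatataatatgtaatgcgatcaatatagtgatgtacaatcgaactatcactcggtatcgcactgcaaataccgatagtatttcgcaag

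CG9166, chr3L:1352138-1352238, plus strand: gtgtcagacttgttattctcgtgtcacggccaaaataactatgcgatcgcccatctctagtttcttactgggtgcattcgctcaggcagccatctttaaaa

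dikar side summit, chr3L:6743591-6743691, minus strand: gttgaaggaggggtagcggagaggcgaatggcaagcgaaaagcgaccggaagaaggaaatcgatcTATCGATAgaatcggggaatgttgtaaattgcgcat

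Counting both strands and overlaps, TATCGA matched 3 times within 50 bp of the Oga summit, 3 times at EMC4, and 2 times each at Neb-cGP and Arf1. Over the 54 summits, TATCGA lay within 50 bp of 10, which is 18.5% (95% Wilson interval 10.4 to 30.8), against 32.1% of all nuclear pooled summits. Both shares moved with the list and the window. In replicate 1 alone 10 of 31 summits at the loci held it, 32.3%, against 41.7% of all summits of that list, and within 100 bp of the pooled summits 31.5% held it, against 42.7%. The leading summits held it in 8 of 35 cases, 22.9%, against 36.8% of all leading summits. The side summits held it in 2 of 19 cases, 10.5%, against 10.5% of all side summits. For comparison, 12.1% of 23694 windows of the same length around annotated start sites contained it. Intervals cover counting error only, and neighbouring summits are not independent.

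The homeodomain core TAATTA, searched on both strands, lay within 50 bp of 3 of the 54 summits, 5.56%, against 5.74% of all pooled summits. GAGAGA, the motif of the GAGA factor, lay near 2 of 54, 3.70%, against 6.80%. Annotated start sites held TAATTA in 3.36% and GAGAGA in 4.01% of windows. The median GC content of the windows was 41.6% at the 6 loci, ranging from 21.8% to 70.3%, and 42.6% over all pooled summits. The member counts of all these motifs are small, and a match does not show that a factor binds there.

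The pooled counts chose the genes, so lower counts in the other lists are in part built in, and genes that are no members can have more summits there, as msn with 8 pooled and 10 conservative summits does. SNF4Agamma had 10 summits in the pooled list, 7 in the conservative list, 5 in replicate 1 and 5 in replicate 2. Ptp61F had 9, 8, 8 and 3, nocte had 9, 5, 5 and 2, and velo had 10, 5, 3 and 1. Hakai had 8, 6, 6 and 2. Arf1, EMC4 and CG33170 share their summits and had 8, 4, 4 and 6. Replicate 1 held more summits than replicate 2 at Ptp61F, nocte, velo and Hakai, the same number at SNF4Agamma, and fewer at the Arf1 locus. Over all nuclear chromosomes the lists held 4899 pooled, 4474 conservative, 3457 replicate 1 and 2960 replicate 2 summits, so a lower count in replicate 2 is also seen genome-wide.

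**Figure D1:**
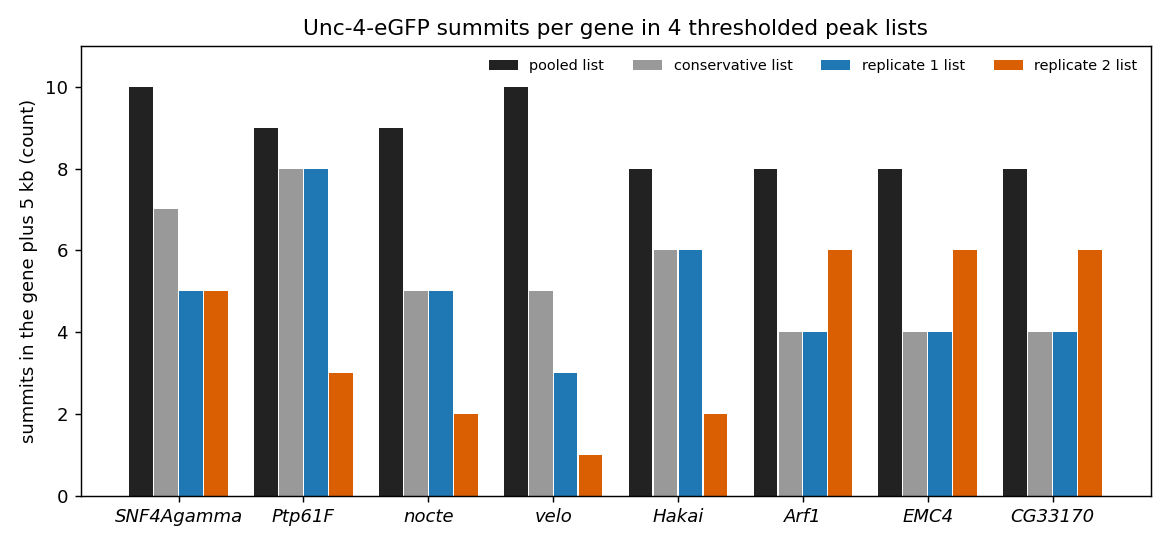
Summits in each gene plus 5 kb (count, vertical axis) for the 8 genes (horizontal axis) in the pooled, conservative, replicate 1 and replicate 2 lists, 1 bar per list. The pooled counts, which chose the genes, run from 8 to 10, and those of replicate 2 from 1 at velo to 6 at the Arf1 locus.

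The line between members and other genes is not sharp. With 8 or more pooled summits there were 14 coding genes, 0.100% of all, and besides the 8 members, EcR and psq these were Ost48, Pmvk, msn and simj, each with 8. Pmvk lies inside the window of Hakai, and 7 of its 8 summits are also counted for Hakai. Just below, 34 genes had 7 summits. By the sum of absolute differences of the counts over the 4 lists, the genes outside the 6 loci most like a member were CG42359 and Nsun5, each 2 away from Hakai. PIG-B follows at 3 from SNF4Agamma, a distance it shares with RanBPM, mib2, brat, simj and Ost48 among others, and ties were ordered by the highest pooled signal.

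SNF4Agamma (FBgn0264357, dm6 chr3R:21140739-21214269, plus strand) showed the clearest spread of summits over a gene's own promoters. It has 9 start clusters, of which 4 were marked. The strongest of its own summits lay 140 bp upstream of the first start, with a pooled signal of 287, and had signals of 211 in replicate 1 and 69.5 in replicate 2. The second marked promoter had its leading summit 146 bp upstream of the start, with a pooled signal of 150. Replicate 1 had a signal of 87.2 there, and replicate 2 had 2 summits, of 50.7 and 36.9. Thus both replicates held a peak at each of these promoters.

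Further into SNF4Agamma the pooled summits were matched in the thresholded list of 1 replicate or of none. The promoter in the middle of the gene had a summit of 92.0 at -51 bp that was matched only in replicate 2, at 33.4. The last marked promoter had a summit of 94.4 at +78 bp that was matched only in replicate 1, at 66.0, and another of 68.4 at -820 bp that had no thresholded summit in either replicate. Intronic summits at -1001 bp (94.4) and -1232 bp (53.5) lay just beyond the 1 kb limit, the first matched in replicate 1 at 51.4 and the other in neither. The highest signal in the window, 613, belonged to the promoter of the neighbour Oga, which encodes the enzyme that removes O-GlcNAc from proteins. It lay 12 bp upstream of the Oga start and had signals of 433 in replicate 1 and 163 in replicate 2. The start of Smyd5, on the other strand, lies 286 bp from that of Oga.

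Ptp61F (FBgn0267487, dm6 chr3L:1342493-1475257, minus strand) carried the strongest summit of all 6 loci, and it marked 1 of the gene's 4 start clusters. That summit lay 56 bp upstream of an internal start, with a pooled signal of 700, and with 538 and 186 in replicates 1 and 2. The same interval of 505 bp holds a side summit 199 bp farther upstream, with a pooled signal of 122 and 92.1 in replicate 1. The distal start at the 5' end of the gene had no pooled summit within 1 kb.

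The other summits in the Ptp61F window lay at or in other genes nested in its introns or beside it. A pair of summits in 1 interval of 493 bp, with 384 and 149, lay in an exon of CG9166 at +1072 and +1272 bp from its start, inside a Ptp61F intron. The stronger was matched in both replicates, at 250 and 130, and the weaker in replicate 1 at 114. These are the only intervals at the 6 loci that carry more than 1 pooled summit with the same start and end, so that the 54 summits come from 52 distinct intervals. A summit of 156, matched at 104 and 52.5, lay in introns of both Ptp61F and ru, 3801 bp from the nearest start, a glutamate tRNA gene. A side summit of 12.5 lay 200 bp from it.

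At the near end of Ptp61F, indra had a summit of 144 at -14 bp, matched in replicate 1 at 108, where a side summit of 17.3 lay 202 bp away. A summit of 78.2 lay in an exon of CG32320 at +169 bp from a tRNA gene for glutamate, and replicate 1 had a summit of 47.1 nearer to the next copy of that tRNA. The weakest leading summit at the 6 loci, 42.2, lay 227 bp upstream of rho, which encodes the rhomboid protease that releases EGF receptor ligands. It had no thresholded summit in either replicate. Only 2 of the 9 summits in the window were within 1 kb of a start of Ptp61F itself.

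The nocte window (FBgn0261710, dm6 chrX:10461865-10474675, minus strand) had strong summits at both neighbours and weaker ones at nocte. Neb-cGP had a leading summit of 617 at -55 bp, with 412 and 210 in the replicates, and a side summit of 7.60 at +147 bp. PPP4R2r, a regulatory subunit of protein phosphatase 4, had a single summit of 484 at -81 bp, with 332 and 149. These were the only nocte-window summits found in the thresholded list of replicate 2.

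At the 5' end of nocte the start of CG2889 faces away from the nocte start at a distance of 41 bp, so a summit there cannot be given to either gene alone. The leading summit had a signal of 106 and lay 19 bp past the CG2889 start, and its side summit of 24.1 lay at +221 bp. Replicate 1 matched them at 62.6 and 29.3. An internal nocte start had a summit of 69.5 at -123 bp, with a side summit of 13.9 that lay 29 bp upstream of another CG2889 start, and neither replicate matched either of them. In a nocte exon, 2478 bp past the Neb-cGP start and so far from any promoter, a summit of 88.1 was matched in replicate 1 at 75.9. Its side summit of 5.35 was the lowest signal at the 6 loci.

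The velo window (FBgn0035713, dm6 chr3L:6744426-6752752, minus strand) had 10 pooled summits, of which only 1 lay inside velo. That one had a signal of 67.2 and no replicate match. It lay 100 bp upstream of an internal velo start and 101 bp past another, and is credited only to the nearer. The 5' start of velo lies 161 bp from that of Sbds, a ribosome maturation factor, on the other strand. Between these starts lay a leading summit of 213, 59 bp upstream of Sbds, with 159 in replicate 1. Replicate 2 had its only thresholded summit of the window, 45.1, at +99 bp from the velo start. The side summit of 40.0 lay 11 bp upstream of a second Sbds start.

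Ist1, which acts with the ESCRT-III complex, had summits of 60.7 and 7.77 at -131 and -338 bp that no replicate matched. The remaining velo-window summits lay at dikar. One of 66.6 lay 369 bp past an internal dikar start with no replicate match. The other 4 form 1 wide region, described below.

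Hakai (FBgn0032812, dm6 chr2L:19580612-19582474, minus strand) is a short gene with a single start, and its 8 summits marked 6 start clusters, 1 of them its own. Another of the 6, a spi start just outside the window, was marked by an intronic summit 747 bp away. The conservative list marked 5. The Hakai summit lay 166 bp past the start, in an exon, with a signal of 121. Replicate 1 had 78.6 there with a side summit of 18.5, and replicate 2 had 48.0. Pmvk, phosphomevalonate kinase of the isoprenoid pathway, had the strongest summit of the window at -83 bp, with a pooled signal of 193 and replicate signals of 113 and 90.1. These were the only summits of the window matched in the thresholded lists of both replicates.

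The gene spi, which encodes the main ligand of the EGF receptor, had a summit of 102 at -74 bp, matched in replicate 1 at 72.9. A region in a spi intron had summits of 64.8 and 6.70, each 747 bp from a different spi start, with no replicate match. CG10366 had 91.7 at -105 bp, matched in replicate 1 at 69.8, and a side summit of 5.89 at +99 bp. The receptor tyrosine phosphatase gene Lar had 78.8 at +68 bp, matched in replicate 1 at 51.1. In 4 of these 6 loci, SNF4Agamma, nocte, Hakai and velo, the strongest summit belonged to a neighbour or to a promoter shared with one.

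The Arf1 locus holds 3 of the 8 genes within a few kilobases, and it was the locus where replicate 2 was richest in calls. Arf1 (FBgn0010348, dm6 chr3L:22868380-22872231, minus strand) has 5 start clusters, of which 2 were marked. The stronger summit lay at -37 bp, with a pooled signal of 136 and replicate signals of 107 and 54.9. A weaker summit of 50.9 at +162 bp of the last start had no replicate match. The summit at the 5' end, 84.3, lay 29 bp upstream of the nearest start of CG11109, on the other strand, and 60 bp from the first Arf1 start, so it cannot be given to either gene alone. It was matched at 54.6 and 46.0. Replicate 2 also had a summit of 12.4 near the antisense RNA gene asRNA:CR45969 that no other list held.

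EMC4 (FBgn0037199, dm6 chr3L:22867175-22868243, minus strand) had a single summit at its single start, at -62 bp, with a pooled signal of 231 and replicate signals of 168 and 63.2. This was the highest signal of the locus in each of these lists. CG33170 (FBgn0053170, dm6 chr3L:22864600-22867535, plus strand) had 2 of its 3 start clusters marked, by summits of 35.3 at +17 bp and 33.1 at -8 bp that neither replicate matched. Both lay in the region of CG33169, which starts just before it.

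**Figure D2:**
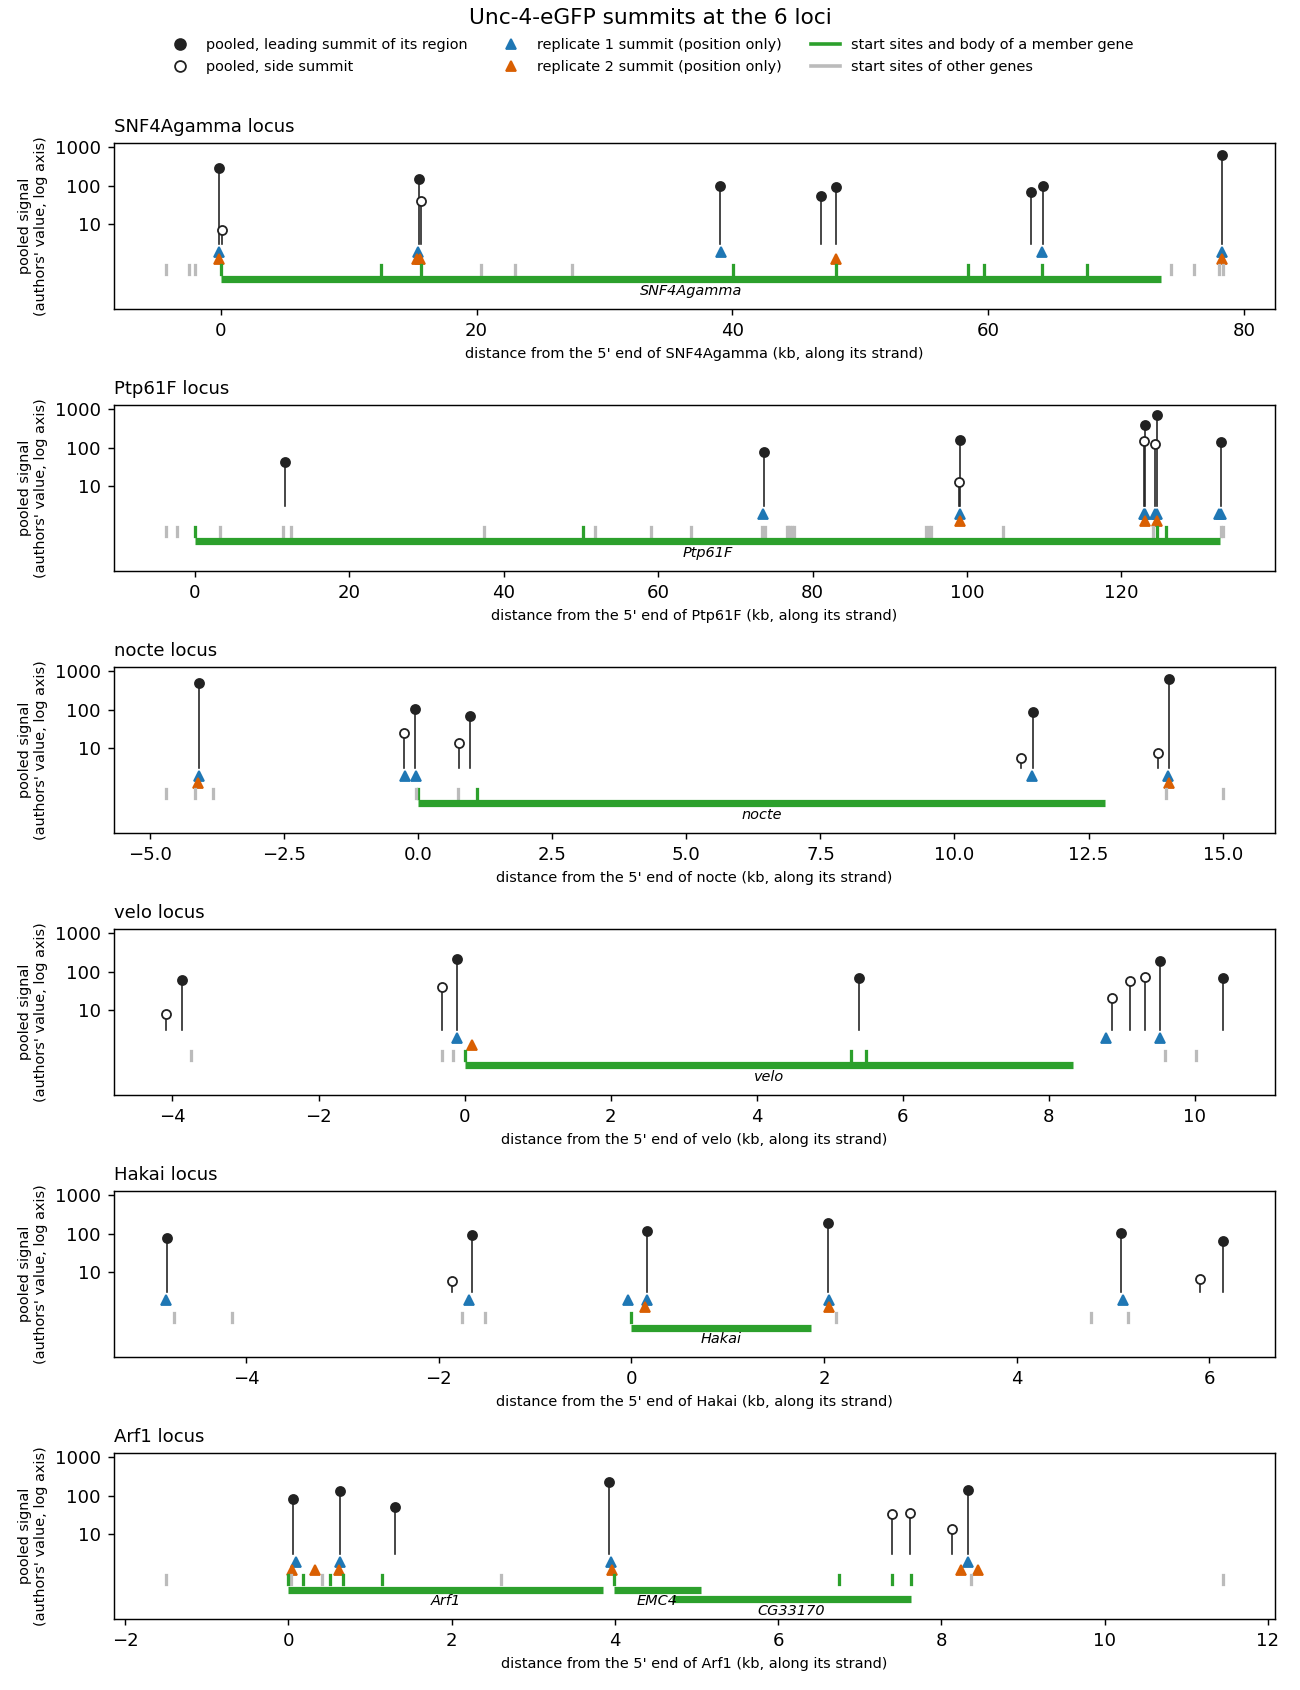
Pooled summits at the 6 loci by distance from the 5' end of the named gene (kb, along its strand) and by the authors' signal (vertical log axis), with leading summits filled and side summits open. Triangles give the positions of replicate summits, ticks the start sites, and bars the member genes. Filled points sit over start sites in most cases, and the open points stand beside a higher filled one.

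The question put to these loci was whether the summits mark separate promoters or a single wide region. Of the 54 summits, 35 were leading summits of 35 separate regions, and 30 of these lay within 1 kb of a start and marked 29 different start clusters. The other 5 leading summits lay beyond 1 kb, in introns of SNF4Agamma and Ptp61F and in exons of CG9166 and nocte. Of the 19 side summits, 4 lay at a start cluster that no leading summit marked, which brings the clusters marked to 33. The remaining 15 side summits added no promoter: 12 lay at a start cluster already marked and 3 lay beyond 1 kb. In the windows 32 of 86 start clusters were marked, and the other, a spi start, lay just outside the Hakai window. How many of the 22469 start clusters of the genome were marked was not counted.

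Leading summits at start clusters thus outnumbered side summits that added none, 30 against 15. Over the whole pooled list, 3726 of 4034 leading summits lay within 1 kb of a start, and side summits numbered 865. The same order thus held over the whole list and is not particular to these loci. Each region also has exactly 1 leading summit by definition. The conservative list had 35 summits in 27 regions at 26 start clusters, and each of the 35 repeated the interval, summit and signal of a pooled peak. Replicate 1 had 31 summits in 26 regions at 23 clusters, and replicate 2 had 19 in 15 regions at 15 clusters. The arrangement differed in places: the only replicate 2 summit in the velo window marked the first velo start, which no pooled summit marks, and at the Arf1 locus replicate 2 joined promoters that are apart in the pooled list. Within 1 kb of a start lay 30 of the 35 conservative summits, 27 of the 31 of replicate 1 and 17 of the 19 of replicate 2.

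Regions covered 5.15% of the SNF4Agamma window, 2.14% of the Ptp61F window, 14.0% at nocte, 18.7% at velo, 27.1% at Hakai and 16.0% at the Arf1 locus. Regions with 1 summit were 191 to 547 bp wide, and those with several were 493 to 1449 bp wide with a median of 715 bp. Width is a poor measure of breadth here, since 38 of the 54 peaks, 70.4%, had the commonest width of 516 bp, against 57.4% of all pooled peaks. All 2812 nuclear pooled peaks of that width had their summit at the middle.

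The members' own starts account for less than the counts per gene say. The 8 genes have 28 start clusters, of which 13 were marked. A summit marks only the cluster nearest to it, so an unmarked cluster can still lie close to a summit. The nearest pooled summit was 60 bp from the unmarked nocte start and 102 bp from the first velo start. The nearest start belonged to a member for 19 of the 54 summits, and 25 lay within 1 kb of any start of a member. For 22 summits, starts of 2 or more genes lay within 1 kb. These counts were not made over all genes and summits, so they show no trait particular to the members. Some summit lay within 1 kb of a start for 46 of 54, 85.2% (95% Wilson interval 73.4 to 92.3), against 92.4% of all pooled summits. Within 100 bp of a start lay 25 of 54, 46.3%, against 61.1%.

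Side summits followed a fixed geometry. Each region with several summits had them at least 199 bp apart, the same minimum as in the whole pooled list, and the median gap between adjacent summits of a region was 204 bp at the loci and in the whole list. Of 25 gaps under 1 kb between neighbouring summits at the loci, 17 lay between 180 and 240 bp, and in the whole list 785 of 1065 did. The signal of a side summit was between 1.23% and 38.9% of that of its leading summit, with a median of 17.4%, and the median over all 865 side summits was 18.3%. In 15 of 19 cases, 78.9%, the score in the list differed by at most 1 from that of the leading summit, against 88.9% of all side summits.

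**Figure D3:**
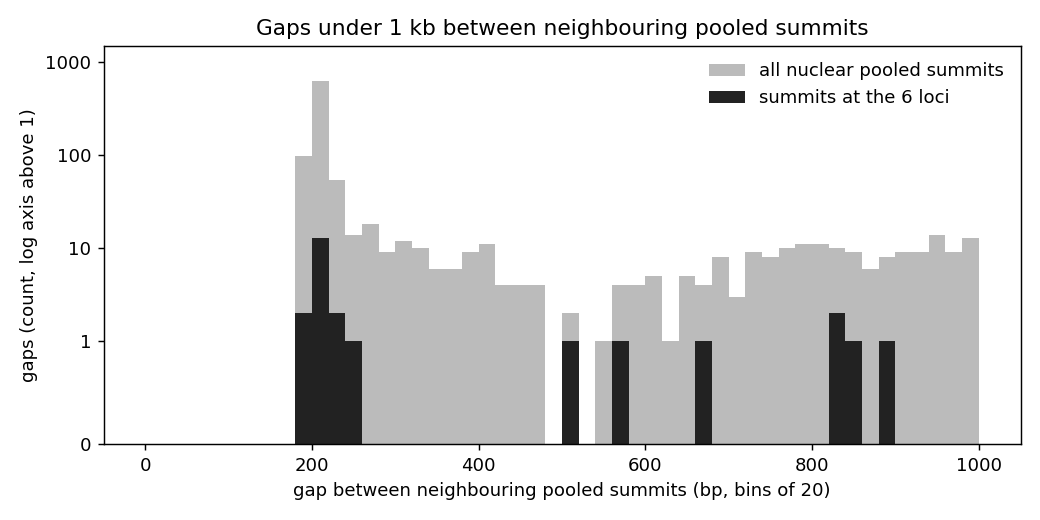
Counts of gaps under 1 kb between neighbouring pooled summits (horizontal axis in bp, bins of 20 bp; vertical axis logarithmic above 1), for all nuclear pooled summits in grey and for the 6 loci in black. Both have their mode between 200 and 220 bp and no gap under 199 bp.

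The choice of genes by summit count favours loci with side summits, so their excess is part of the rule. At the loci 34 of 54 summits, 63.0%, lay in regions with 2 or more, against 34.7% of all pooled summits, and 19 of 54, 35.2%, were side summits, against 17.7%. Of the regions at the loci, 15 of 35 held several summits, against 20.7% of all 4034 regions. Nothing is read from these differences. The rule did not use the signals themselves, which were not high. The median pooled signal was 78.5 at the loci and 107 over all, and the median of leading summits was 102 and 131. Side summits are weaker than their leading summit by definition, and the rule favours them. The lower median of all summits at the loci is thus in part built in.

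**Figure D4:**
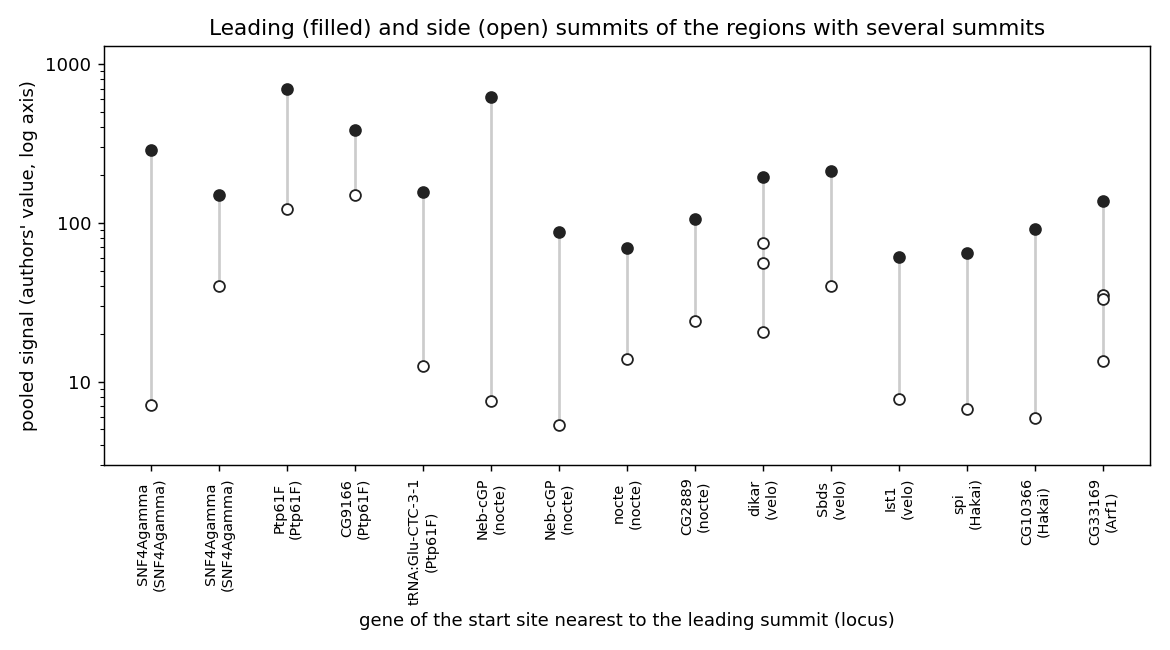
Signal of leading (filled) and side (open) pooled summits (authors' value, vertical log axis) for the 15 regions at the 6 loci with several summits, named by the gene nearest to the leading summit and the locus. Each open point lies below its filled point, down to 1.23% of it at Neb-cGP.

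In the pooled list only 2 regions at the loci held more than 2 summits, and they are 2 of the 3 regions with 4 summits in the whole pooled list. The first lies upstream of dikar in the velo window, at chr3L:6743075-6744150, and spans 1076 bp. Its leading summit of 194 lay 66 bp upstream of the start, and side summits of 74.5, 55.7 and 20.4 followed at -275, -477 and -729 bp. All 4 had the same start cluster as the nearest, so here 1 promoter and its upstream stretch made up the region. The conservative list kept the leading summit alone, replicate 1 had 148 at the leading summit and 10.9 at -813 bp, and replicate 2 had no thresholded summit in it.

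The second wide region lies at CG33169 and CG33170, at chr3L:22863643-22865091, and with 1449 bp it was the widest nuclear region in the pooled list. Its summits of 138, 13.5, 35.3 and 33.1 span 933 bp and mark 3 start clusters, 1 of CG33169 and 2 of CG33170. Replicate 1 had a summit of 91.5 at the CG33169 start and replicate 2 had summits of 49.0 and 9.76 around it, and none lay at the CG33170 starts. The conservative list held no summit in the region. The part over CG33170 was thus in no other thresholded list than the pooled one, whereas the part over CG33169 was seen in both replicates.

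The replicate 2 list had another wide region, at chr3L:22871413-22872386, 974 bp long and the widest of that list. It held summits of 54.9, 12.4 and 46.0 and marked 3 start clusters, of Arf1, asRNA:CR45969 and CG11109. In the pooled list the Arf1 and CG11109 summits there, 136 and 84.3, lie in separate regions, and the asRNA:CR45969 start is not marked.

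**Figure D5:**
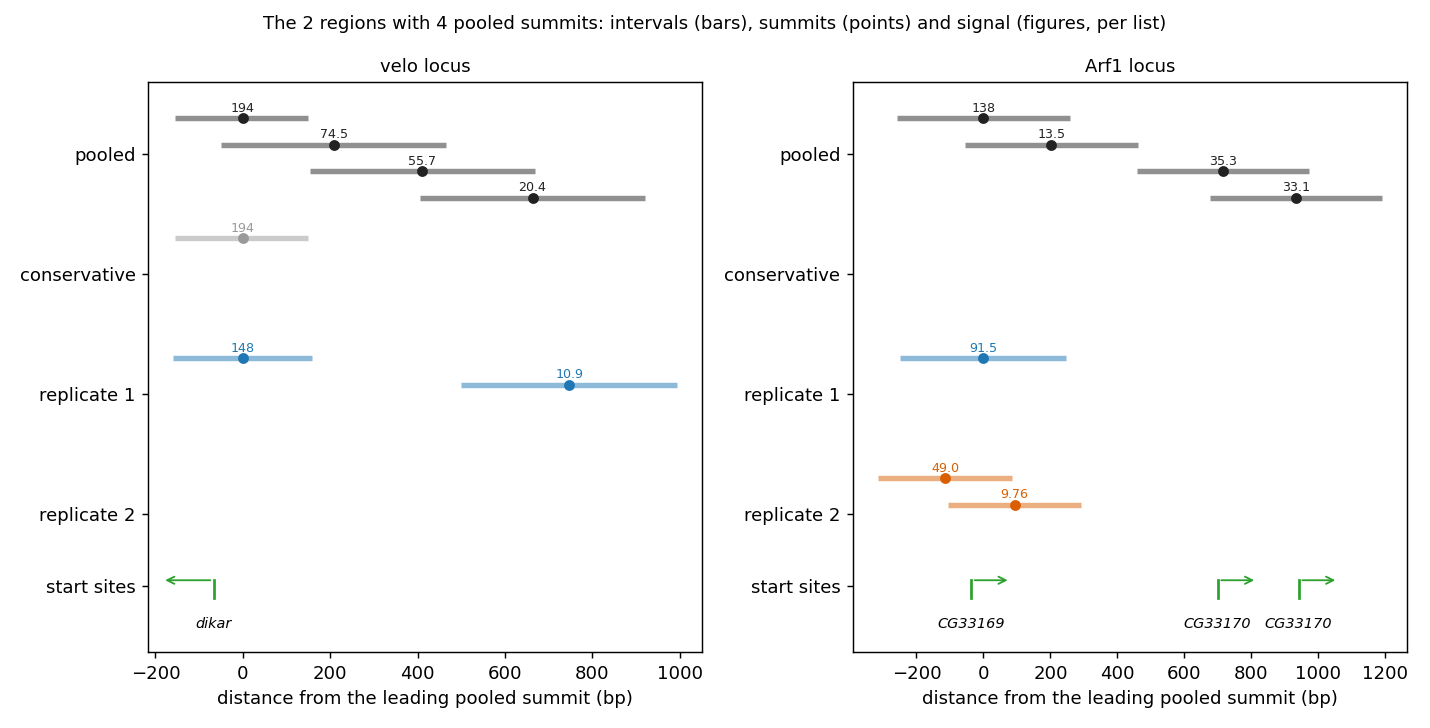
The 2 regions with 4 pooled summits, at dikar (velo locus) and at CG33169 and CG33170 (Arf1 locus), by distance from the leading pooled summit (bp), with intervals as bars, summits as points and the signal beside each. Rows are the 4 lists and arrows are start sites. At dikar the side summits fall from 74.5 to 20.4 away from a single start, whereas at CG33170 a start lies under each of the summits of 35.3 and 33.1.

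Matches with the replicates were more frequent among leading than among side summits, which have lower pooled signals by definition. A summit of both replicates lay within 100 bp of 14 of the 54 pooled summits, 25.9% (95% Wilson interval 16.1 to 38.9), against 44.8% of all pooled summits. Counted by overlap of the intervals instead, 42.6% had both, against 55.7% of all. By the 100 bp distance, all 14 were leading summits, which makes 40.0% of 35, against 53.1% of all leading summits. No side summit at the loci had both replicates (0 of 19, against 6.47% of all side summits), and 4 of 19, 21.1%, had either, against 37.3%. Neither replicate had a summit near 25 of 54, 46.3%, against 28.7%, and the conservative list had one near 35 of 54, 64.8%, against 78.2%. All 4 lists derive from the same 2 libraries, so a match between the pooled list and a replicate is not independent. The rule counted pooled summits and favours side summits, so the lower shares of matches at the loci are in part built in. The median signal at the loci was lower than over all, 78.5 against 107, and its part in these shares was not tested.

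The ranked replicate lists, which also hold peaks that missed the IDR threshold, showed weak calls at many of the 25 summits without a thresholded match. All 10 leading summits among them had a ranked summit within 100 bp, 8 in both replicates and 2 in a single one. Of the 15 side summits, 1 had both, 9 had a single one and 5 had none. The side summit with both lay at the first CG33170 start, with 17.8 in replicate 1 and 25.1 in replicate 2. The internal promoter of velo had ranked signals of 31.3 and 37.2, that of nocte 44.6 and 32.2, and that of the last Arf1 start 36.2 and 28.7. The -log10 of the global IDR at velo was 0.392 in replicate 1 and 0.747 in replicate 2, and a higher value means a more reproducible peak. The ranked lists hold 21280 and 45920 nuclear peaks, many more than the thresholded ones, so a match with them is a weaker statement. Ranked matches were not counted over all pooled summits without a thresholded match, so these counts have no share to stand against.

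Partners of the members were looked up as lists chosen with the members in view, and the members themselves were left out of the counts. A pooled summit within 1 kb of a start of its own is found for 35.9% of coding genes, and one in the gene plus 5 kb for 57.1%. Of 48 partner genes, 27 had a summit within 1 kb of an own start and 36 had one in the gene plus 5 kb, with at most 5 summits per gene. The signals below are the highest within 1 kb of an own start, even where the start of another gene is nearer.

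Of 9 other ER membrane complex subunits, 6 had a summit within 1 kb of a start, led by EMC1 (553) and EMC3 (493), both above EMC4. Of 6 other genes of the N6-methyladenosine writer, 5 did, led by Flacc (374) and Mettl14 (355), against 121 at Hakai. Of 7 genes of the SUMO pathway, 6 did, led by Sumo itself (525) and by pira (300), and Ulp1 did not. The JAK/STAT list had 5 of 9, with the receptor dome at 457, the transcription factor Stat92E at 442 and the kinase hop at 370, all below Ptp61F. The ligand genes upd1, upd2 and upd3 had none within 1 kb.

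Of 7 Arf GTPases and exchange factors 4 had a summit, with the exchange factors Efa6 at 678 and garz at 416, and the GTPase genes Arf4 and Arf6 without one. Of AMP-activated protein kinase only alc, the beta subunit, had one (115), and the catalytic subunit AMPKalpha and the upstream kinase Lkb1 had none. Of 8 genes of the circadian clock only Pdp1 did (71.8), and the core genes per, tim, Clk and cyc had none within 1 kb of a start.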

How the data were processed

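The members, gene lists and summaries were chosen with earlier results of these data known. The deposited files are peak lists on dm6 filtered or ordered by the irreproducible discovery rate (IDR), 1 thresholded and 1 ranked list per replicate, and a pooled and a conservative thresholded list of both. For the peak caller and the aligner, no name or version is given in the sources used here. The columns used were the authors' signal per peak, the other value of every deposited list, the summit offset from the peak start, and in the deposited thresholded lists a score up to 1000. The deposited ranked replicate lists also give the −log10 of the global IDR. In the ranked lists of the whole series 16 columns on separate inputs to IDR were not used, and those lists, input libraries and signal tracks were not analysed here.

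Genes and start sites came from Ensembl BDGP6.54, without transposable elements. All its genes and all peaks fell within the RefSeq chromosomes. Python 3.11.15 was used. A replicate match was a thresholded summit within 100 bp. Precision is stated only as 95% Wilson intervals, which cover counting error. The code was tested on simulated data. Alternatives were other lists, flanks, distances and start sites. Genes were named as members, nearest neighbours, genes with 7 or more summits and partner lists.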

Additional observations from a re-analysis of the deposited data

How the results depend on the processing

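The 54 summits at the 6 loci became 35 in the conservative list, 27 with no flank and 18 with signals at or above the nuclear median, and between 19 and 31 with 1 replicate left out. With no flank velo went from 10 to 1, Hakai from 8 to 1, EMC4 from 8 to 0 and CG33170 from 8 to 2, and with a 2 kb flank EMC4 had 1. The 33 start clusters marked became 14 with signals at or above the median and 15 to 23 with 1 replicate left out, and the 35 regions became 16 and 15 to 26. The share of summits near a start fell to 68.5% within 250 bp in place of 1 kb, and was 87.1% to 89.5% with 1 replicate left out. The share with TATCGA was 31.5% within 100 bp and 21.1% to 32.3% with 1 replicate left out. For the 250 bp distance, and for TATCGA in replicate 2, no share over all summits is given here. With overlap of intervals in place of a 100 bp distance, an alternative chosen after seeing the data, 42.6% of summits had both replicates. The counts of clusters and regions stayed within 1.5 times under every other setting tried. With RefSeq start sites the number of clusters was also 33 and the share near a start also 85.2%. No paired analysis was possible because there is 1 group. The unknown depth and the lack of an analysed control limit what the lists can show.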
